A study of Homo sapiens with 6 samples.

Results

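The genes described here are 8 human genes chosen as carriers of inverted Alu repeats in their 3′ untranslated regions (3′ UTRs): NICN1, PSMB2, PAICS, F11R, BPNT1, NUP43, CTSS and CCNYL1. A DHX9 peak was assigned to a gene when it overlapped the gene's span in the assembly hg19 by at least 1 nt on the gene's strand. By this rule the 8 genes held 17 of the 21618 peaks found with the antibody DHX9-Rb and 7 of the 6831 peaks found with the antibody DHX9-mAb. The rule used positions alone and no measured value, but the choice of genes was made with earlier results of these data known. The samples were HEK293 cells, an established human embryonic kidney line, cross-linked with ultraviolet light and otherwise untreated as far as the labels state. The assay was FLASH, in which RNA cross-linked to a protein is pulled down with an antibody against that protein and sequenced. The groups were DHX9-mAb, DHX9-Rb and the control immunoglobulin IgG-Rb, with 2 biological replicates each. Each DHX9 antibody has 1 list of peak positions that stands for both replicates, with no height, fold or p-value, so depth and replicate error are unknown, and no values of the IgG-Rb samples were analysed here.

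DHX9, or RNA helicase A, unwinds double-stranded RNA in the nucleus. Alu elements are short repeats that spread through primate genomes by copying their RNA, and they descend from 7SL RNA, the RNA of the signal recognition particle. When 2 Alu copies of opposite orientation lie in the same transcript, the sense copy can pair with the antisense copy into a long hairpin, which is a substrate of enzymes that edit or unwind double-stranded RNA. Long 3′ UTRs of messenger RNAs are among the places where such pairs are found.

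The label was checked on sequence, in transcripts of GENCODE release 29, which are on the assembly GRCh38. The first 120 nt of BCYRN1, a small cytoplasmic RNA with an Alu-derived start, were compared with the longest annotated 3′ UTR of every protein-coding gene. A match of at least 60 nt was called an Alu-like segment, sense when it read like BCYRN1 and antisense when it read as the reverse complement. An Alu-like segment was found in the 3′ UTR of all 8 genes, and in both orientations in 6 of them. Over 19122 genes with a 3′ UTR, 888 (4.64%) had both orientations. Among the 8299 genes with a 3′ UTR of at least 1362 nt, the length of the shortest of the 8, the share was 10.3%. Because the genes were chosen for inverted Alus, the 6 of 8 is a check of the choice and not a finding. With the whole of 7SL (RN7SL1, 299 nt) as the probe, both orientations were found in 6 of the 8 genes. The exceptions with BCYRN1 were BPNT1, with 1 sense segment in a 3′ UTR of 1362 nt, and CCNYL1, with 2 sense segments in 2476 nt. With this probe, the label was therefore not borne out for these 2 genes in the annotated 3′ UTRs searched. The CCNYL1 transcript used extends over 44489 nt against a span of 50300 nt, and which end is shorter was not determined.

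The peaks of these genes lay mostly close to the 3′ end of the span. A peak was placed by its midpoint. The 3′ end was taken as the last 3 kb of each span, a length set with earlier results of these data known. With DHX9-Rb, 10 of 17 peaks (58.8%, 95% Wilson interval 36.0 to 78.4) lay there, and with DHX9-mAb 4 of 7 (57.1%, 25.0 to 84.2). The last 3 kb made up 9.9% of the summed spans of 242386 nt. Per kb of span this was 0.417 DHX9-Rb peaks in the 3′ end and 0.0321 in the rest, and 0.167 and 0.0137 DHX9-mAb peaks. The intervals cover counting error only and take peaks as independent, which neighbouring peaks of 1 transcript are not. No test was made over peaks or genes, and the same share over all genes was not computed, since it needs a gene annotation of hg19.

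**Figure D1:**
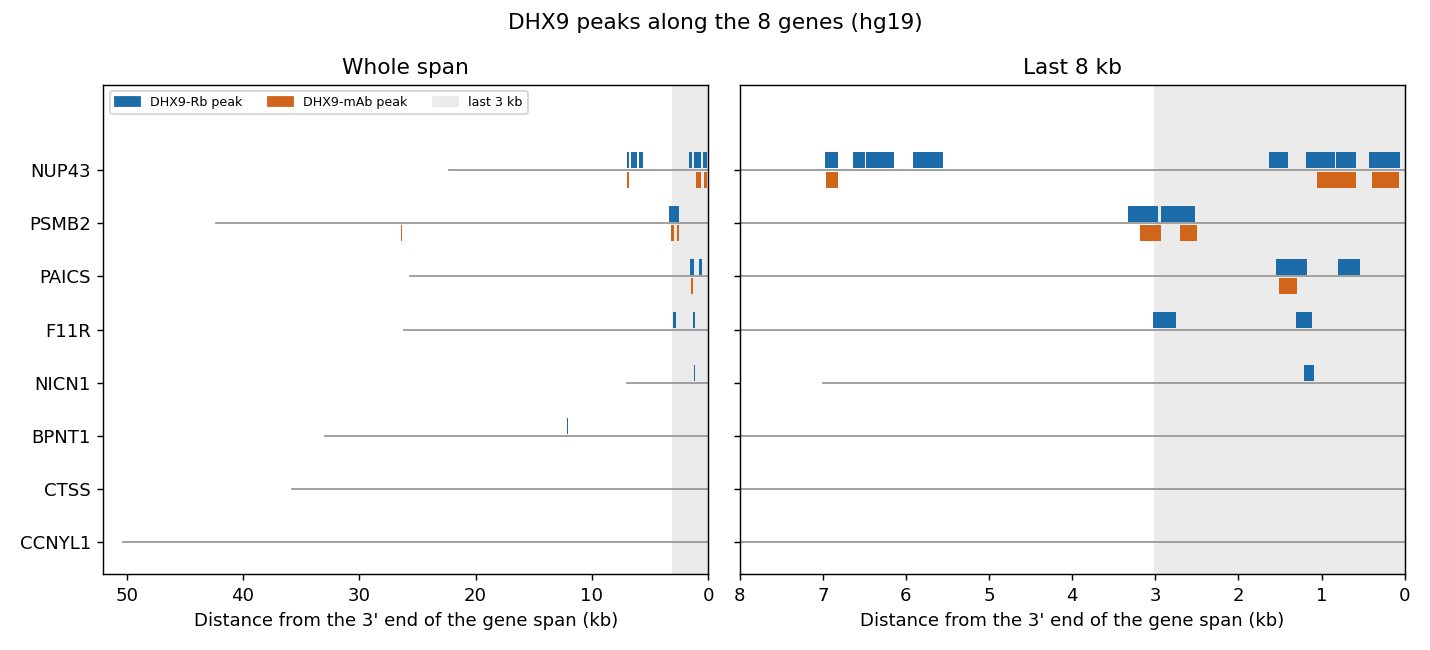
Peaks along the 8 gene spans, drawn by distance from the 3′ end of the span in kb, with DHX9-Rb peaks above each line and DHX9-mAb peaks below it. The left panel shows whole spans and the right panel the last 8 kb; shading marks the last 3 kb, which holds 10 of 17 DHX9-Rb peaks and 4 of 7 DHX9-mAb peaks.

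The genes differed widely in peak number. DHX9-Rb had peaks in 6 of the 8 genes: 8 in NUP43, 3 in PSMB2, 2 each in PAICS and F11R, and 1 each in NICN1 and BPNT1. DHX9-mAb had peaks in 3 genes, with 3 in NUP43, 3 in PSMB2 and 1 in PAICS. CTSS and CCNYL1 had none with either antibody. In 5 of the 6 genes with a DHX9-Rb peak the density was higher in the last 3 kb than in the rest, and PAICS, F11R and NICN1 had no peak elsewhere. BPNT1 was the exception, with its only peak outside the 3′ end.

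**Figure D2:**
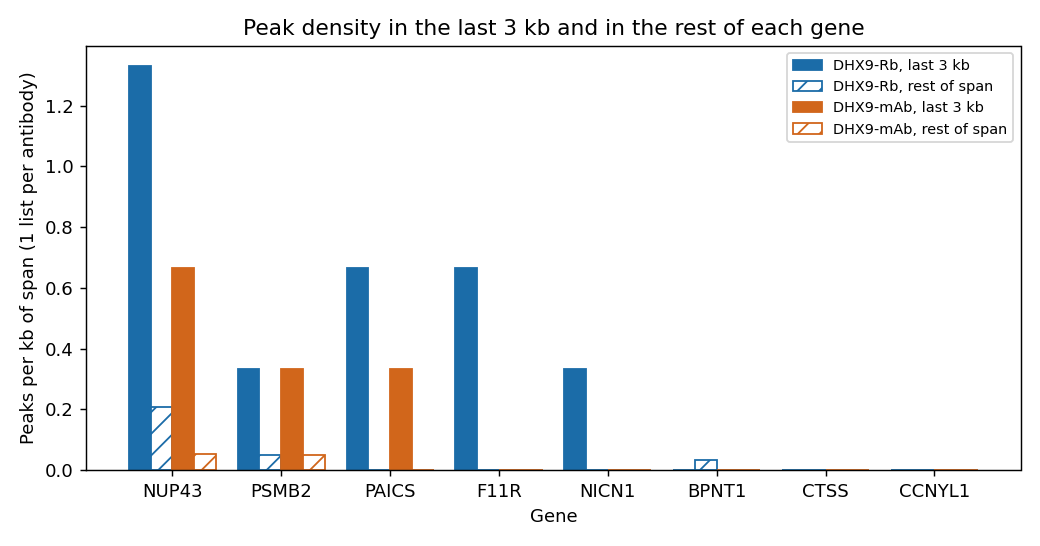
Peaks per kb of span in the last 3 kb (filled bars) and in the rest of the span (hatched bars) for each gene and antibody, from 1 list per antibody and so without error bars. NUP43 reached 1.33 DHX9-Rb peaks per kb in the last 3 kb against 0.208 in the rest, and BPNT1 alone had a peak in the rest and none in the last 3 kb.

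NUP43 encodes a subunit of the Y complex, a scaffold of the nuclear pore. It had the most peaks of the 8 genes, in a pair of groups on the minus strand of chromosome 6. The group next to the 3′ end held 4 DHX9-Rb peaks, at chr6:150045503-150045885, chr6:150046037-150046275, chr6:150046287-150046632 and chr6:150046856-150047081. They covered 1194 nt, or 39.8%, of the last 3 kb. DHX9-mAb had 2 peaks in this group, at chr6:150045521-150045841 and chr6:150046035-150046508. The first lay within the first DHX9-Rb peak, and the second overlapped the next 2 DHX9-Rb peaks, which stood 11 nt apart.

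The other NUP43 group lay 5556 to 6978 nt before the end of the span. It held 4 DHX9-Rb peaks, the outermost at chr6:150051007-150051369 and chr6:150052272-150052429. DHX9-mAb marked the last of these alone, with a peak at chr6:150052265-150052415. No NUP43 peak of either antibody lay between the groups or farther than 6978 nt from the 3′ end of the 22241 nt span. In the GENCODE transcript with the longest 3′ UTR of NUP43, the last exon is 2884 nt long and the intron before it covers distances of 2884 to 7297 nt from the transcript's end. By distance, the group next to the 3′ end would fall in the last exon and the other in that last intron.

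PSMB2 encodes a beta subunit of the 20S proteasome, the core particle that degrades proteins. It had 3 peaks with each antibody, on the minus strand of chromosome 1. When peaks within 50 nt were merged, the DHX9-Rb number was 1 and the DHX9-mAb number stayed at 3. The DHX9-Rb peaks formed 1 nearly continuous block at chr1:36067622-36068036, chr1:36068064-36068201 and chr1:36068188-36068430, of which the last 2 overlap. The DHX9-mAb peaks chr1:36067595-36067803 and chr1:36068027-36068279 lay over parts of this block with 223 nt between them, and each of the 3 DHX9-Rb peaks overlapped at least 1 of them. The DHX9-Rb block lay 2521 to 3329 nt before the end of the span, and the DHX9-mAb peak nearest to the end began at 2494 nt. The 3 kb limit ran through this site: with each antibody, 1 peak of it counted as 3′ end and what remained of it as rest. The remaining DHX9-mAb peak, chr1:36091413-36091509, was 97 nt wide and lay 26312 nt from the 3′ end, with no DHX9-Rb peak over it. It was the only DHX9-mAb peak of the 8 genes without a DHX9-Rb partner.

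PAICS encodes a bifunctional enzyme of purine synthesis. On the plus strand of chromosome 4 it had DHX9-Rb peaks at chr4:57325989-57326354 and chr4:57326736-57326996, both within the last 3 kb and 381 nt apart. The DHX9-mAb peak chr4:57326025-57326236 lay inside the first of them. The peak nearer to the end of the gene had no DHX9-mAb partner. Together the DHX9-Rb peaks covered 20.9% of the last 3 kb of PAICS and none of the rest of its span.

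F11R encodes junctional adhesion molecule A, a protein of tight junctions, and NICN1 encodes a subunit of the complex that adds glutamate chains to tubulin. Both had DHX9-Rb peaks in the last 3 kb and no DHX9-mAb peak. In F11R these were chr1:160966114-160966303 and chr1:160967755-160968028, on the minus strand and 1451 nt apart. In NICN1 the single peak was chr3:49460853-49460978, on the minus strand and 126 nt wide, and the next DHX9-Rb peak on that strand was 53161 nt away. A site called with a single antibody has no second check here.

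BPNT1, which encodes a phosphatase that removes a phosphate from adenosine bisphosphates, had 1 DHX9-Rb peak, chr1:220242844-220242951, on the minus strand. It was 108 nt wide, the narrowest DHX9-Rb peak of the 8 genes, and lay 12020 nt from the 3′ end of the span. By distance it would fall in an intron of the GENCODE transcript used, but only 70 nt from an exon. That transcript extends over 32372 nt against 32981 nt of the span, so intron and exon cannot be told apart here. The nearest DHX9-Rb peak on the same strand was 2465244 nt away. BPNT1 was also a gene whose annotated 3′ UTR had Alu-like segments in 1 orientation.

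CTSS encodes cathepsin S, a lysosomal protease of antigen-presenting cells, and CCNYL1 encodes a relative of cyclin Y. Neither had a peak on its strand or on the opposite one, over spans of 35762 and 50300 nt. The nearest DHX9-Rb peaks on the strand of CTSS were 43336 nt beyond its 3′ end and 78771 nt before its start. For CCNYL1 these distances were 2263674 and 174007 nt. CTSS has no peak, and its 3′ UTR of 2850 nt holds 2 sense segments and 1 antisense segment. Since the depth is unknown and RNA levels of the genes were not examined, no peak means that none was called, not that DHX9 did not bind.

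The Alu-like segments and the peaks were then set side by side, each as a distance from its own 3′ end. No position was moved between the assemblies, so a shared range of distances is not an overlap of bases. Where the hg19 span and the annotation on GRCh38 differ in length, the difference was not assigned to an end, apart from PAICS, whose lengths are compared below. For F11R the span and the GRCh38 gene have the same length, 26138 nt, and the transcript used extends over 26133 nt. There the DHX9-Rb peak 2754 to 3027 nt from the end spanned the range of a sense segment, 2861 to 2961 nt. The DHX9-Rb peak at 1113 to 1302 nt shared 23 nt of distance with an antisense segment at 1280 to 1484 nt. A second antisense segment, at 261 to 476 nt, had no peak. The 2 F11R peaks thus shared distances with segments of opposite orientation, the peak nearer to the end over a small part of its 190 nt.

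For PSMB2 the GRCh38 gene is 44 nt shorter than the span of 42345 nt, but the transcript with the longest 3′ UTR extends over 31994 nt. Its 3′ UTR of 3723 nt held 4 segments of alternating orientation. The peak block lay at the distances of 2 of them, an antisense segment at 2508 to 2717 nt and a sense segment at 3141 to 3250 nt. The DHX9-mAb peaks at 2494 to 2702 and 2926 to 3178 nt shared 195 and 38 nt of distance with them. The DHX9-Rb peaks at 2521 to 2935 and 3087 to 3329 nt shared 197 and 110 nt, and the one between them, at 2963 to 3100 nt, shared none. The DHX9-mAb peak 26312 nt from the end shared none either. The shorter annotated 3′ UTR of PSMB2 (1683 nt) ends farther upstream and holds the same antisense and sense segments that lay at the distances of the block. From its own end they lay at 468 to 677 and 1101 to 1210 nt, and they are not a further pair. With the segments counted from that end and the peaks still from the end of the span, none of the 6 peaks shared distances with them. As the 2 ends differ, this count does not bear on the sharing with the longest 3′ UTR. The transcript with this shorter 3′ UTR extends over 40261 nt, 2084 nt less than the span. In the longest 3′ UTR, the sense segment at 1611 to 1829 nt and the antisense segment at 307 to 527 nt, nearer to the end, had no peak with either antibody.

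For NUP43 the GRCh38 gene is 3110 nt longer than the span, while the transcript used, at 22258 nt, differs from it by 17 nt. For NICN1 both gene and transcript are 611 nt shorter than the span. In NUP43, 2 of 11 peaks shared distances with a segment. The antisense segment at 872 to 1102 nt lay within the range of the DHX9-Rb peak at 836 to 1181 nt and shared 186 nt with the DHX9-mAb peak at 584 to 1057 nt. Its sense segment, at 457 to 573 nt, fell in the gap between peaks of both antibodies, and the antisense segment at 1811 to 1916 nt had none. In NICN1 the DHX9-Rb peak at 1087 to 1212 nt shared distances with the sense segment at 993 to 1204 nt, but the difference in length exceeds the width of the segment.

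For PAICS the GRCh38 gene is 3212 nt longer than the span, and its longest 3′ UTR (5041 nt) is 3211 nt longer than the next annotated one (1830 nt). In the longest 3′ UTR no segment shared distances with a peak. In the shorter one, looked at after these values had been seen, the sense segment at 567 to 678 nt lay within the range of the DHX9-Rb peak at 538 to 798 nt. The antisense segment at 1187 to 1288 nt lay within that of the DHX9-Rb peak at 1180 to 1545 nt. The DHX9-mAb peak, at 1298 to 1509 nt, began just beyond that segment. The transcript with this 3′ UTR extends over 25620 nt against 25627 nt of the span. With the longest 3′ UTR of each gene, 9 of the 24 peaks of both lists shared distances with a segment. In this count PAICS has 0 of 3 peaks, against 2 of 3 with its shorter 3′ UTR. Overlapping peaks of the 2 antibodies were counted separately, and the same share over the peaks of all genes was not computed. A segment is the part that matched the 120 nt probe, and the repeat around it can be longer.

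**Figure D3:**
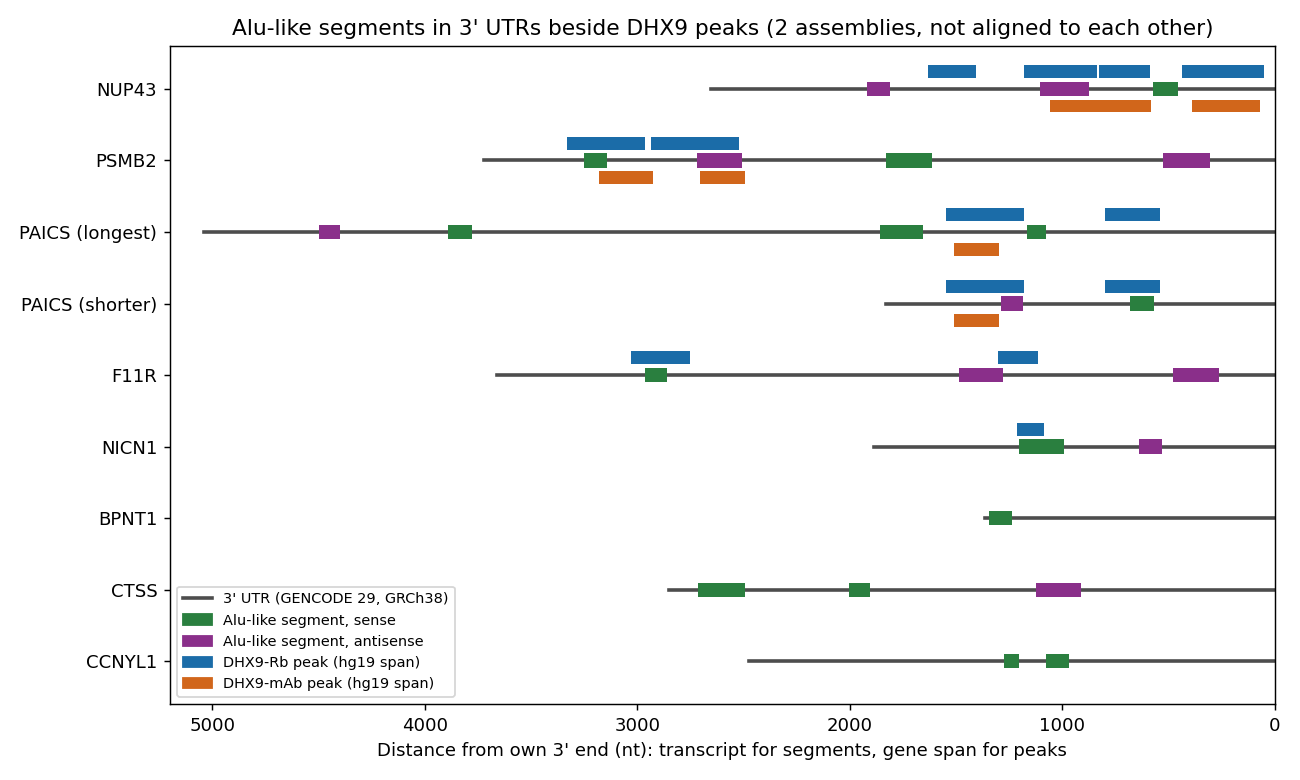
Alu-like segments in GENCODE 3′ UTRs (dark lines) by orientation, with the DHX9 peaks of each gene, all by distance in nt from the transcript's end (segments) or the span's end (peaks); PAICS is drawn for its longest and its next 3′ UTR. Both F11R peaks and 4 of the 6 PSMB2 peaks share distances with a segment, and CTSS has segments of both orientations and no peak.

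The sites of the 2 antibodies were compared within the 8 genes. A partner peak, meaning one of the other antibody that shares 1 nt or more on that strand, was present for 8 of the 17 DHX9-Rb sites, or 47.1% (95% Wilson interval 26.2 to 69.0), against 28.6% over the whole DHX9-Rb list, which lies inside that interval. These 8 were in NUP43 (4), PSMB2 (3) and PAICS (1). With DHX9-mAb, 6 of 7 sites had such a partner, or 85.7% (48.7 to 97.4), against 88.0% over the whole list. In the last 3 kb 5 of 10 DHX9-Rb peaks and 4 of 4 DHX9-mAb peaks had a partner, and elsewhere 3 of 7 and 2 of 3. The numbers are too small to tell the 3′ end from the rest by this measure.

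Peak spacing and width within the 8 genes were near those of the lists. A neighbour of the same antibody and strand lay less than 1 kb away for 13 of 17 DHX9-Rb peaks (76.5%), against 77.7% of the whole list, and for 4 of 7 DHX9-mAb peaks (57.1%), against 63.6%. The median width was 243 nt with DHX9-Rb (108 to 415), against 201 nt, and 212 nt with DHX9-mAb (97 to 474), against 191 nt. No span held a peak on the opposite strand. None of the 8 genes had a peak of either antibody on its strand within 10 kb beyond either end.

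Peak numbers of the antibodies were tested against each other in windows of 100 kb with at least 10 peaks in both lists together, with Fisher's exact test adjusted by Benjamini-Hochberg. The test takes peaks as independent, but peaks lie in groups and each list pools its replicates, so its p-values describe the 2 lists only. Of 818 windows 6 (0.733%) passed 0.05, all 6 with relatively more DHX9-mAb peaks, and none of them held any of the 8 genes. The window of NUP43 was the only one of theirs with enough peaks for the test. It held 8 DHX9-mAb and 16 DHX9-Rb peaks, of which 3 and 8 were in NUP43 (odds ratio 1.58 towards DHX9-mAb, two-sided Fisher's exact test, p = 0.337 before adjustment and 1 after it). For the other 7 genes, the difference between the antibodies could not be tested.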

How the data were processed

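The labels' protocols describe cross-linking, sonication, antibody capture, RNase I trimming and barcoded adapters whose random bases served to merge PCR duplicates. Bowtie2 2.2.6 and hg19 are named in the submitters' processing notes. The deposited lists hold other values, namely the borders of every peak region with its strand, numbered from 1. Per the file headers' second column the authors used PEAKachu; its control and thresholds, and how reads from repeats were handled, which bears on peaks in Alu elements, were not given in the sources used here. The deposited score column is empty (0 numbers), and each list pools 2 replicates.

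Gene spans came with the choice of genes, which, like the definitions used, was made with earlier results of these data known. All 8 genes are named. Sequences of the Alu-like segments are not reported here. Alu-like segments were found with BLAST+ 2.17.0 (word size 7, E-value 1e-05, segments within 100 nt joined) in GENCODE 29. Wilson intervals are at 95%. The window and segment searches were tested on simulated data. Alternatives covered the 3′ end's definition, overlap, merging and windows. Python 3.11.15, NumPy 2.4.6, SciPy 1.17.1 and matplotlib 3.10.9 were used.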

Additional observations from a re-analysis of the deposited data

How the results depend on the processing

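Peak numbers, 3′ end shares, overlap shares and the count of windows all stayed within their intervals, or within 1.5 times, in the 49 alternative values computed for them. Some of these values could not move, such as those leaving out a gene without peaks or counting either strand. The intervals of the 3′ end share were wide (36.0 to 78.4 with DHX9-Rb, 25.0 to 84.2 with DHX9-mAb), so staying within them is a weak check. The 3′ end share ranged from 47.1% (last 2 kb) to 70.6% (last 5 kb) with DHX9-Rb. With DHX9-mAb it ranged from 42.9% (last 2 kb) to 75.1% (covered nucleotides). With a 3′ end as long as the longest annotated 3′ UTR, an alternative chosen after seeing the data, it was 70.6% and 71.4%, where such ends make up 9.76% of the spans. Without NUP43, which holds 8 of the 17 DHX9-Rb peaks, it was 66.7% with DHX9-Rb, and 2 of 4 peaks with DHX9-mAb. Of 64 values for single genes, 1 moved: with peaks within 50 nt merged, PSMB2 had 1 DHX9-Rb peak in place of 3. The overlap share of DHX9-Rb fell to 35.3% when at least 50% of the peak had to be covered. The windows that passed numbered 5 to 8. No paired analysis was possible because each list pools its replicates, and leaving out a replicate was not possible for the same reason. Read depth is unknown, so weak sites cannot be told from missing ones.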
